A study of Mus musculus with 3 samples.

Results

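The MHC class I heavy chains, their light chain and the machinery that loads them with peptide were followed as 9 genes chosen by name, H2-K1, H2-D1, H2-Q7, H2-T23, B2m, Tap1, Tap2, Tapbp and Nlrc5, out of the 32285 genes in the count matrices. The cells were tumour-infiltrating leukocytes (TILs) from subcutaneous MC38-Ova tumours, a mouse colon carcinoma line that carries ovalbumin, grown in wild-type C57BL/6 mice that carry the photoconvertible Kaede protein in all cells. Mice were injected with 250000 tumour cells, tumours were illuminated with violet light on day 13 and taken on day 15, and every tumour came from mice given an isotype control antibody. Cells that were in the tumour at illumination were Kaede-red and cells that entered later were Kaede-green, and the data were 2 Kaede-green libraries from separate biological replicates and 1 Kaede-red library. Sorted cells were live, CD45+, TER119- and Kaede+, and CD11b+NK1.1- cells had been gated out, so that myeloid cells were few.

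Class I molecules display peptides from inside the cell to CD8 T cells and are also read by inhibitory receptors on NK cells. H2-K1 and H2-D1 encode the classical heavy chains, while H2-Q7 (Qa-2) and H2-T23 (Qa-1) encode non-classical ones, the last being the ligand of the CD94/NKG2A receptor. B2m encodes the light chain shared by all of them. Tap1 and Tap2 form the transporter that carries peptides into the endoplasmic reticulum, Tapbp encodes tapasin, which bridges the transporter and the empty heavy chain, and Nlrc5 encodes the transactivator of class I promoters. Most of these genes are induced by interferons.

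Cells were assigned by raw counts of unique molecular identifiers (UMIs). NK cells had at least 1 Ncr1 and at most 1 Cd3e UMI, which gave 2605 and 2669 cells in the first and second Kaede-green library (Kaede-green 1 and 2) and 3174 in Kaede-red. CD8 T cells (at least 2 Cd3e, 1 Cd8a and 1 Cd8b1 UMIs) numbered 2353, 3262 and 4085 in the same order, Treg cells (at least 2 Cd3e and 1 Foxp3 UMIs) 388, 709 and 705, and myeloid cells (at least 5 Lyz2 and 3 Cst3 and at most 1 Cd3e UMIs) 27, 87 and 37. Summed levels of 7 NK marker genes were 6946 to 13860 CPM (UMIs of a gene scaled to the same total in every sum) in NK cells and 1666 to 2129 in CD8 T cells. The 10 myeloid markers summed to 33801 to 40617 CPM in the myeloid cells, where C1qa and C1qb were at 0 in Kaede-green 1. These sums include genes that picked the cells. Cst3 held 15193, 14092 and 5527 CPM and Lyz2 748, 1902 and 11811 in myeloid cells, and Ncr1 held 305, 264 and 248 in NK cells. The libraries held 87193225, 129438292 and 175848894 UMIs, and the median NK cell had 6127, 8177 and 17231.5 UMIs, so that colour and depth moved together. CD8 T cells were also deepest in Kaede-red, with medians of 8955, 10516.5 and 14191 UMIs. Treg cells (9577.5, 10098 and 7139) and myeloid cells (14630, 16351 and 13197) were shallowest there. The separate parts of colour, depth and library in a colour difference cannot be told apart here. Values from cells of 4000 to 12000 UMIs are given beside the results they touched. This window narrowed the depth range without equalizing it. The median NK cell in it had 6238.5, 7204 and 7794 UMIs, and 1015 of the 3174 Kaede-red NK cells remained. The cells of each class were summed per library, and libraries were the replicates. Because the assay counts molecules at the 3′ end, levels were not divided by gene length.

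Of the 9 genes, 7 lie on chromosome 17 of the mouse build GRCm38, with H2-K1 at chr17:33996017-34000347 (-), H2-D1 at chr17:35262730-35267499 (+), H2-Q7 at chr17:35439155-35443773 (+) and H2-T23 at chr17:36029773-36032855 (-). Tapbp lies at chr17:33915899-33929292 (+), Tap1 at chr17:34187553-34197225 (+) and Tap2 at chr17:34203527-34216321 (+). B2m is at chr2:122147686-122153083 (+) and Nlrc5 at chr8:94434356-94527272 (+). Heavy chain genes are close relatives. The last 300 transcript bases of H2-K1 were 93.3% identical to a transcript of H2-D1, those of H2-D1 86.3% to H2-K1 and those of H2-Q7 83.3% to H2-K2, so that reads of these genes could be exchanged or dropped. Tapbp overlaps Zbtb22 on the same strand.

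Because the members were compared by the interferon state of the cells, the promoters that carry the relevant motifs are shown, from RefSeq on GRCm38.p6, each 300 bases from 250 before to 50 after the annotated start. Capitals mark matches, on either strand, to GAAANNGAA (a form of the core of the interferon-stimulated response element) and TTCNNNGAA (a GAS-type site). They also mark matches to GGGANTNCC (an NF-kB-type site), CCAAT (the Y box core) and TGACG (the X2 box core). The windows are chr17:34000298-34000597 (-) for H2-K1, chr17:35262844-35263143 (+) for H2-D1, chr17:35438905-35439204 (+) for H2-Q7, chr17:36032652-36032951 (-) for H2-T23, chr2:122147437-122147736 (+) for B2m and chr17:34187306-34187605 (+) for Tap1.
H2-K1: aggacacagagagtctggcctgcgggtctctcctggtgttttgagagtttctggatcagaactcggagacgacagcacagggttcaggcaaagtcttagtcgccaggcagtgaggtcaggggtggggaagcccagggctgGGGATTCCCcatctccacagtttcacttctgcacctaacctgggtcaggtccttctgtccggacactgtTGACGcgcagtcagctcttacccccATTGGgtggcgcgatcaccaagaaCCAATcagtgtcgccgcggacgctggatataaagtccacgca
H2-D1: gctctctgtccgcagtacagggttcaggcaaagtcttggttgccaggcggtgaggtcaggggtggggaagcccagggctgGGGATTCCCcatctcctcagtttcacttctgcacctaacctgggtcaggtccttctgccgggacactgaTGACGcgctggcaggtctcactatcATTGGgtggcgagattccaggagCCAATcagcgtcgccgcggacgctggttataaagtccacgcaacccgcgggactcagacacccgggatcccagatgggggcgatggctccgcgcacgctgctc
H2-Q7: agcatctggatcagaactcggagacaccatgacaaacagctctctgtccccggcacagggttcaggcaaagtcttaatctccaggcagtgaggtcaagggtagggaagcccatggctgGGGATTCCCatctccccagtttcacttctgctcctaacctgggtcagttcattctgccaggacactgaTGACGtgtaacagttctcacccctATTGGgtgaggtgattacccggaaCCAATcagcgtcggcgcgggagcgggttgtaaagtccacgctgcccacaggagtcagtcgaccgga
H2-T23: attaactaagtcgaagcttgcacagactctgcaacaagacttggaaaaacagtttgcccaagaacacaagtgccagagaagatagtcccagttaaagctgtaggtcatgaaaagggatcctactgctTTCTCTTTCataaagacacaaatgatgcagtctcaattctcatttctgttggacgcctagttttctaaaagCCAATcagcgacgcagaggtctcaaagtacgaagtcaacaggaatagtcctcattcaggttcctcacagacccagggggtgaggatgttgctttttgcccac
B2m: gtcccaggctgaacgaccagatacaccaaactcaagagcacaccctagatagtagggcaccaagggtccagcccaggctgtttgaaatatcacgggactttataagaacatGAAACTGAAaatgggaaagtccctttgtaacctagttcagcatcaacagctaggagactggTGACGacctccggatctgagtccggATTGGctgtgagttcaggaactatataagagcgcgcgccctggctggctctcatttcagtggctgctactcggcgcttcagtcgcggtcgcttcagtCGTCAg
Tap1: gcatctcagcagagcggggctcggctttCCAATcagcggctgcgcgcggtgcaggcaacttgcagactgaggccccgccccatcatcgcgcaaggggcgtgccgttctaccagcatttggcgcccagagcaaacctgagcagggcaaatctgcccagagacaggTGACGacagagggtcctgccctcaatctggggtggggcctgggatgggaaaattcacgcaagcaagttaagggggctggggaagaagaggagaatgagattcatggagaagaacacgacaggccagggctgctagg

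Entries were found for 7 of the 9 genes, the seventh being Tapbp. The classical chains and H2-Q7 shared GGGATTCCC, which lay 110 bases before the annotated start in H2-K1, 170 in H2-D1 and 132 in H2-Q7, while 3.95% of 32851 promoters held an NF-kB-type match. The form of the response element core searched was found in H2-T23 and B2m, 123 and 139 bases before the start, against 8.56% of all promoters. The core with its parts in the other order was not searched. Entries without a match, those of H2-K1, H2-D1 and H2-Q7 among them, were therefore not shown to lack a response element. A GAS-type match was found in none of the 7, against 8.30%. The Y box core was in all 7 (37.4% of all promoters) and the X2 box core in 5, all but H2-T23 and Tapbp (20.8%). These matches describe letters in a window and were not read as binding.

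All 9 genes were detected in every class and library, with the classical chains and B2m far above the loading genes. H2-K1 stood at 4144, 3667 and 2953 CPM in NK cells, always in the order of the first and second Kaede-green library and the Kaede-red one, at 3305, 3297 and 3399 in CD8 T cells, at 4424, 4164 and 5305 in Treg cells and at 774, 1168 and 1697 in myeloid cells. The myeloid values were below every lymphocyte value. H2-D1 averaged 3156 ± 463 CPM in NK cells (SD, n = 3 libraries), 2810 ± 117 in CD8 T cells, 3939 ± 529 in Treg cells and 2302 ± 667 in myeloid cells, where Treg cells lay above CD8 T and myeloid cells without overlap and the rest overlapped. H2-Q7 was at 1052 ± 284 CPM in NK cells, 1130 ± 95.6 in CD8 T cells and 1569 ± 171 in Treg cells but at 60.5, 189 and 217 in the myeloid cells of the 3 libraries. H2-T23 had its highest mean in Treg cells, 805 ± 61.1 CPM, followed by 604 ± 146 in myeloid, 578 ± 11.8 in CD8 T and 523 ± 98.8 in NK cells, and myeloid values overlapped those of every other class, while Treg values lay above CD8 T and NK values.

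**Figure D1:**
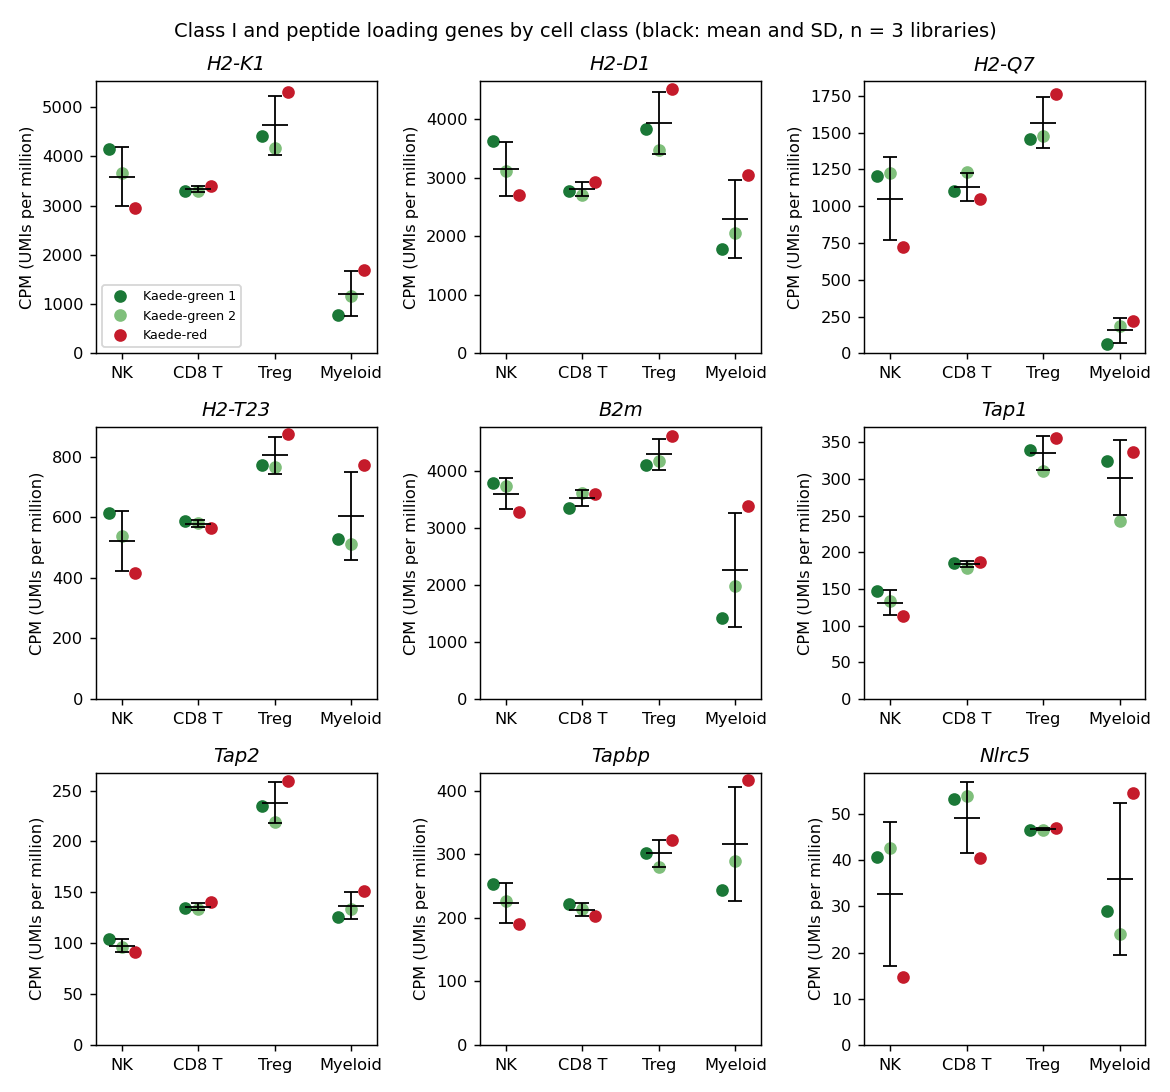
CPM (linear axis from 0) of each of the 9 genes in NK, CD8 T, Treg and myeloid cells, with a point for each of the 3 libraries and a line at the mean with its SD. H2-K1 and H2-Q7 sit lowest in myeloid cells, whereas Tap1 sits near 335 CPM in Treg and 301 CPM in myeloid cells against 132 CPM in NK cells.

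The light chain gene B2m was at 3607 ± 277 CPM in NK cells, 3528 ± 143 in CD8 T cells, 4298 ± 274 in Treg cells and 2267 ± 1006 in myeloid cells, and in it Treg values lay above all others. The transporter genes were ordered differently. Tap1 stood at 148, 133 and 114 CPM in NK cells of the 3 libraries, at 186, 179 and 187 in CD8 T cells, at 340, 310 and 356 in Treg cells and at 324, 243 and 337 in myeloid cells, so NK, CD8 T and Treg cells did not overlap with one another. Tap2 kept that lymphocyte order at 97.5 ± 6.40, 136 ± 3.69 and 238 ± 20.2 CPM, with 137 ± 12.9 in myeloid cells. Tapbp was at 223 ± 31.8 CPM in NK cells, 213 ± 9.62 in CD8 T cells, 301 ± 21.1 in Treg cells and 317 ± 89.7 in myeloid cells, and Nlrc5, the scarcest, at 32.7 ± 15.6, 49.2 ± 7.65, 46.7 ± 0.232 and 35.9 ± 16.5. The Nlrc5 spread in NK cells came from the Kaede-red library, at 14.7 CPM against 40.8 and 42.6.

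The mixture of heavy chains was more alike among the lymphocyte classes than between them and myeloid cells. Of the UMIs of the 4 heavy chain genes, H2-K1 held 43.2% ± 0.274 in NK cells, 42.5% ± 0.302 in CD8 T cells and 42.3% ± 0.244 in Treg cells but 27.9% ± 2.95 in myeloid cells. H2-D1 held 35.8% to 38.1% as class means in lymphocytes and 54.2% ± 2.35 in myeloid cells. H2-Q7 held 12.5% to 14.4% in lymphocytes and 3.50% ± 1.47 in myeloid cells, and H2-T23 held 6.27% to 7.38% and 14.4% ± 2.02. For each chain the myeloid libraries lay outside the range of all lymphocyte libraries. These shares carry no test.

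Class differences were fitted in edgeR (quasi-likelihood) to the 12 class sums with library as a block, over 12603 genes, and a gene was called at a Benjamini-Hochberg adjusted p under 0.05. Between NK and Treg cells 2 of the 9 genes were called, both lower in NK cells, where 15.0% of all genes tested were called lower. These were the transporter genes Tap1, with a log2 fold change of -1.17 (SE 0.145, adjusted p = 0.000186), and Tap2, with -1.10 (SE 0.131, adjusted p = 0.000138), each lower in 3 of 3 libraries. Treg cells also exceeded CD8 T cells in the same pair, with 2 of 9 called higher against 8.19% of all genes (Tap1 0.73, SE 0.144, adjusted p = 0.00606, and Tap2 0.67, SE 0.130, adjusted p = 0.00546). NK cells were called lower than CD8 T cells in 1 of 9 genes, Tap2 (-0.42, SE 0.129, adjusted p = 0.0490), against 8.47% of all genes. The members not called lay at -0.44 (H2-T23) to -0.058 (B2m) in NK against Treg cells, at -0.19 (Nlrc5) to 0.36 (Tapbp) in Treg against CD8 T cells and at -0.60 (Nlrc5) to 0.23 (H2-D1) in NK against CD8 T cells.

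The lymphocyte calls turned on which sums entered the fit. Without Kaede-green 1 or without Kaede-green 2 neither transporter gene was called between Treg and CD8 T cells, nor Tap2 between NK and CD8 T cells, whereas the NK against Treg calls held under all 15 alternatives. Without Kaede-red, 4 members were higher in Treg than in CD8 T cells and Nlrc5 was lower (-0.32), beside 1990 and 1808 of 12715 genes. In that fit 3 members were lower in NK than in CD8 T cells, beside 2229 genes. All 3 of these gene counts were above those with Kaede-red kept, at 1032, 860 and 1067 of 12603. With the small myeloid sums left out and only cells of 4000 to 12000 UMIs kept, a setting chosen after seeing the data, 8 of 9 genes were called higher in Treg than in CD8 T cells, by 0.25 to 0.71 on the log2 scale, all but Nlrc5 at -0.13, beside 2193 of 11838 genes. In that setting 8 were called lower in NK than in Treg cells, all but H2-D1 at -0.23, beside 2799 genes. There 3 were called lower in NK than in CD8 T cells, beside 2135 genes, Tap1 at -0.55, Tap2 at -0.61 and Nlrc5 at -0.69.

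Myeloid cells were called lower than NK cells in 2 of 9 genes (19.0% of all genes), H2-K1 by -1.52 (SE 0.249, adjusted p = 0.000915) and H2-Q7 by -2.69 (SE 0.370, adjusted p = 0.000291). They were called higher in 3 (16.4% of all genes), Tap1 at 1.26, Tapbp at 0.58 and Tap2 at 0.57. Against CD8 T cells H2-K1 and H2-Q7 were again lower, at -1.35 and -2.73 (2 of 9 against 20.3% of all genes), and Tap1 at 0.83 and Tapbp at 0.70 were higher (2 of 9 against 17.4%). Against Treg cells 4 of 9 were called lower (18.8% of all genes), H2-K1 at -1.68, H2-Q7 at -3.07, B2m at -0.70 and Tap2 at -0.53, and Tap1 differed by 0.096 (SE 0.147). The members not called lay at -0.64 (B2m) to 0.28 (H2-T23) against NK cells, at -0.55 (B2m) to 0.19 (H2-T23) against CD8 T cells and at -0.52 (H2-D1) to 0.34 (Tapbp) against Treg cells. The median of all genes in these fits lay at -0.21 to -0.25. Only 27 to 87 myeloid cells stood behind each sum. NK markers summed to 2030 to 3292 CPM in them, mostly from Tyrobp, which myeloid cells also express, at 1650, 1782 and 3016 CPM. Eomes was at 0, 3.24 and 0 CPM there, Prf1 at 9.68 in the first, 11 in the second and 0 in the last, and Klrb1c at 1.94 to 7.28. Klrk1 stood higher, at 312, 215 and 153 CPM, and Gzma was at 53.2, 92.55 and 116.5. Ncr1 was at 0 in every library by the class rules, because cells that met both the NK and the myeloid rule were left out. Without Kaede-green 2 the calls of H2-K1 and Tapbp against CD8 T cells were lost. Without Kaede-green 1, or without Kaede-green 2, Tap1 alone was called higher than in NK cells and the B2m and Tap2 calls against Treg cells were lost, and Tapbp was not called against NK cells without Kaede-red either. Leaving out Kaede-red raised the members called lower to 5 against NK, 5 against CD8 T and 7 against Treg cells, beside 2422, 2605 and 2482 of 12715 genes, and Nlrc5 was then at -0.64 against NK cells. In cells of 4000 to 12000 UMIs, 4, 8 and 16 myeloid cells, none was called higher than in NK or CD8 T cells, while H2-K1 and H2-Q7 were still called lower than in both.

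The other genes of the pathway were counted in 5 lists, chosen with earlier results of these data known. Of the immunoproteasome list of 5, which makes the peptides, 3 were lower in NK than in Treg cells, Psmb9 at -0.87, Psme2 at -0.82 and Psmb8 at -0.51, and 1 was lower in NK than in CD8 T cells, Psmb9 at -0.51. Of 10 regulators, 5 were lower in NK than in Treg cells, including the interferon signal transducer gene Stat2 (-0.83) and Irf2 (-0.64). Of 7 trimming and chaperone genes, 3 were higher in NK than in Treg cells, the chaperones Hspa5 (0.62) and Canx (0.52) and the glucosyltransferase gene Uggt1 (0.58). The class I-like H2-T24 was at -1.38, H2-T22 at -0.88 and Cd1d1 at -0.55 in NK against Treg cells, all called. In myeloid against NK cells 4 of 5 immunoproteasome genes were higher, with Psmb9 at 0.93 and Psmb8 at 0.74, as were the class I-like genes Hfe at 6.44, known for iron control, and Fcgrt at 5.72, the neonatal Fc receptor. The Qa-region gene H2-Q6 was at -2.90 there, beside the value of H2-Q7.

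NK cells with at least 1 Ifit3 UMI, a gene induced by type I interferon, were set against those with none to ask whether the class I genes differed with interferon state within NK cells. There were 550, 657 and 565 Ifit3-positive NK cells in the 3 libraries and 2058, 2019 and 2610 negative ones, with medians of 6299, 8310 and 17226 UMIs against 6087.5, 8148 and 17246.5. All 9 members were called higher in the Ifit3-positive cells, in 3 of 3 libraries each, where 5.53% of 11430 genes tested were called higher.

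The non-classical H2-T23 showed the clearest change of the heavy chains. It stood at 897, 660 and 538 CPM in positive cells and at 534, 498 and 391 in negative cells of the 3 libraries, a log2 fold change of 0.55 (SE 0.0678, adjusted p = 0.000278). Within each library the positive sum was higher, although the groups overlapped across libraries. H2-K1 was at 4584, 3815 and 3262 CPM against 4010, 3605 and 2886, a change of 0.17 (SE 0.0365, adjusted p = 0.0161), H2-D1 changed by 0.16 (SE 0.0396, adjusted p = 0.0310) and H2-Q7 by 0.18 (SE 0.0394, adjusted p = 0.0171). The share of H2-T23 among heavy chain UMIs was accordingly 7.57% ± 0.621 in positive and 5.87% ± 0.0787 in negative cells, without overlap.

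The loading genes had larger fold changes than the classical chains in the same fit. Tap1 was at 213, 175 and 154 CPM in positive cells and at 130, 120 and 105 in negative cells, which did not overlap, and changed by 0.61 (SE 0.0597, adjusted p = 4.114e-05). Tap2 changed by 0.30 (SE 0.0564, adjusted p = 0.00648), a call that was lost without Kaede-green 2. Tapbp was at 361, 276 and 243 CPM against 223, 210 and 178, again without overlap, a change of 0.52 (SE 0.0668, adjusted p = 0.000369). Nlrc5, at 59.4, 53.4 and 24.3 CPM against 35.4, 38.9 and 12.5, changed by 0.72 (SE 0.0843, adjusted p = 0.000193), and B2m by 0.17 (SE 0.0402, adjusted p = 0.0215). These differences in size between genes were not tested against one another.

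**Figure D2:**
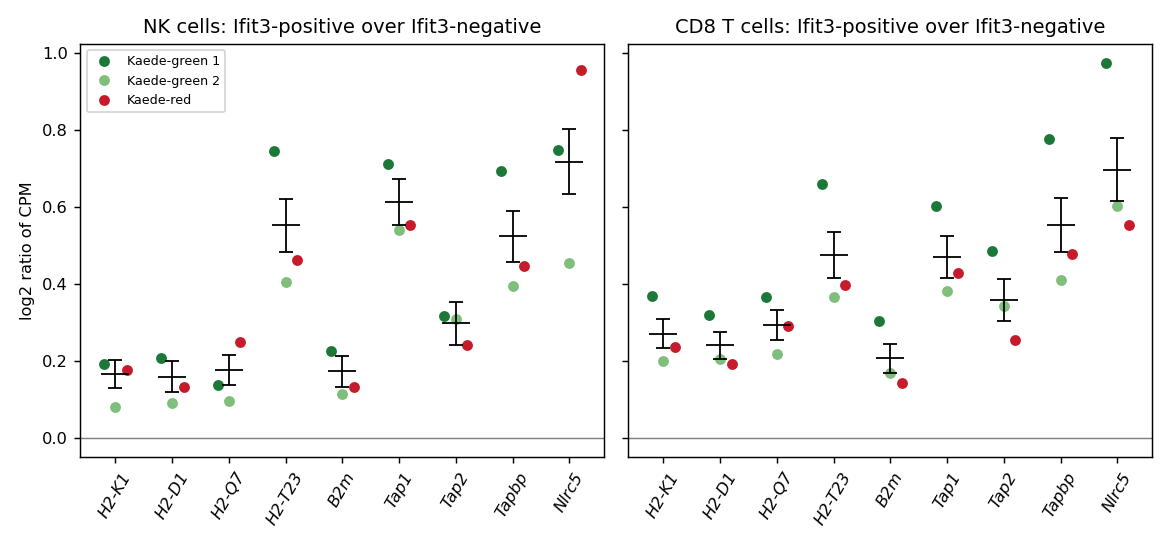
Log2 ratio of CPM in Ifit3-positive over Ifit3-negative cells for the 9 genes, for NK cells in one panel and CD8 T cells in the other, with a point for each library. In both classes every library lies above 0 for every gene, and Nlrc5, H2-T23, Tap1 and Tapbp lie highest.

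Among NK cells of 1 integrin state the counts were smaller, as were the cell numbers. With only Itgam-positive NK cells (55, 68 and 12 positive cells) 2 members were called higher, H2-T23 at 0.77 and Tapbp at 0.75. There 138 of 5414 genes were called higher. With only Itga1-positive NK cells (81, 119 and 271) 3 were called higher, H2-T23 at 0.40, Tap1 at 0.48 and Nlrc5 at 0.93, beside 206 of 9827 genes. Nlrc5 was at 0.039 and not called in the Itgam-positive cells. With every deposited cell, before the filter on genes and mitochondrial UMIs, 5 of 9 were called higher, beside 498 of 11586 genes.

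Around the members, 7 of 7 tested genes of the interferon list were higher in Ifit3-positive NK cells, a list of interferon-induced genes like Ifit3 itself, led by Ifit1 at 3.69, Rsad2 at 2.56 and Isg15 at 2.13. Of 5 immunoproteasome genes 3 were higher, Psmb9 at 0.49, Psmb8 at 0.39 and Psmb10 at 0.37, and of 10 regulators 5 were higher, including Stat2 at 1.49 and Irf9 at 0.51. Of the 9 other class I and class I-like genes tested 5 were higher, including H2-T24 at 1.31, H2-T22 at 0.80 and H2-M3 at 0.45. Of 7 trimming and chaperone genes 1 was higher, Tapbpl, a peptide editor related to tapasin, at 0.28, and 1 lower, the chaperone gene Calr at -0.16.

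In CD8 T cells, where 1280, 1755 and 1706 cells were Ifit3-positive and 1150, 1721 and 2555 negative, all 9 genes were again called higher, in 3 of 3 libraries, against 9.73% of all genes tested. These cells include the 77, 214 and 176 that also met the Treg rule. Their log2 fold changes ran from 0.21 in B2m (SE 0.0375, adjusted p = 0.00775) to 0.70 in Nlrc5 (SE 0.0821, adjusted p = 0.000773), and the B2m call was lost without Kaede-green 2. H2-T23 was at 733, 664 and 675 CPM in positive cells and 464, 515 and 513 in negative cells, without overlap, a change of 0.48 (SE 0.0594, adjusted p = 0.00108). Tap1 changed by 0.47 and Tapbp by 0.555 (SE 0.0703), also without overlap between the groups. H2-K1 changed by 0.27, H2-D1 by 0.24, H2-Q7 by 0.29 and Tap2 by 0.36.

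Of 5 immunoproteasome genes 4 were higher in Ifit3-positive CD8 T cells, led by Psmb10 at 0.68, Psme1 at 0.39 and Psmb9 at 0.35. Of 10 regulators 5 were higher, including Stat2 at 1.78 and Irf9 at 0.75, and of 11 other class I genes 7, led by H2-T24 at 1.49, Fcgrt at 0.97 and H2-T22 at 0.84. Of 7 trimming and chaperone genes 3 were higher and 2 lower, with Tapbpl at 0.56, the peptide-trimming Erap1 at 0.20 and Canx at -0.19 changing most. The interferon list was led by Rsad2 at 3.77, Ifit1 at 3.69 and Oasl1 at 2.67.

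The size of the Ifit3 difference was then compared between NK and CD8 T cells in 1 model. None of the 9 genes was called, with differences (NK minus CD8 T) of -0.12 in H2-Q7 (SE 0.0567, adjusted p = 0.444) to 0.14 in Tap1 (SE 0.0817, adjusted p = 0.533) on the log2 scale, against 0.413% of all genes called higher and 0.747% lower. In the edgeR fit 0 of the 9 had an unadjusted p under 0.05, the lowest being 0.0650 for H2-Q7, and DESeq2 called 0. Within the interferon list Rsad2 and Usp18 were called, at -1.205 (adjusted p = 0.00650) and -0.53.

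NK cells were next thinned to 2000 UMIs each and binned by the Ifit3 UMIs left, 0, 1, 2 to 3, or 4 or more, which removes depth from the binning. The bins held 2312, 2386 and 2976 cells at 0, 170, 173 and 137 at 1, 91, 86 and 49 at 2 to 3, and 35, 30 and 13 at 4 or more. A straight-line slope over the 4 bins was tested, and all 9 members had a positive slope that was called, against 11.5% of 3377 genes tested, although mean levels did not rise at every step. The 4 bins of a library entered as separate sums, with 1 slope for all libraries. The adjusted p of a slope therefore covers scatter of bins about the line, and agreement of the slope between libraries was not tested. Tap1 went from 131 ± 11.3 CPM through 229 ± 22.6 and 268 ± 10.6 to 355 ± 62.5, a slope of 0.50 per bin (SE 0.0572, adjusted p = 2.513e-08). Its 3 libraries at 0 did not overlap with those of any higher bin.

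H2-T23 went from 537 ± 82.7 through 930 ± 132 and 1055 ± 338 to 1247 ± 318 CPM, a slope of 0.40 (SE 0.0509), and H2-K1 from 3901 ± 438 to 5388 ± 305, a slope of 0.15 (SE 0.0255). For H2-K1 and B2m most of the difference lay between 0 and 2 to 3 UMIs, as B2m was at 3675, 4281, 4664 and 4609 CPM in the successive bins. Tap2 was at 135 ± 14.1 and 161 ± 11.3 CPM in the middle bins but at 94.6 ± 49.0 in the last, where Kaede-red had 38.5 CPM from 13 cells. Without the last bin, a choice made after seeing the data, all 9 remained called with slopes of 0.19 to 0.58. Single libraries decided several of the slopes. H2-D1 and B2m lost their call without Kaede-green 1, H2-Q7 without Kaede-green 2 or Kaede-red and Tap2 without either Kaede-green library. Nlrc5 was at 37.25 ± 13.6, 63.0 ± 30.55, 55.5 ± 22.9 and 118 ± 31.1 CPM in the successive bins. Its slope of 0.45 (SE 0.109) lost its call without Kaede-green 2. Nlrc5 was the scarcest member, and the last bin held 35, 30 and 13 cells.

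**Figure D3:**
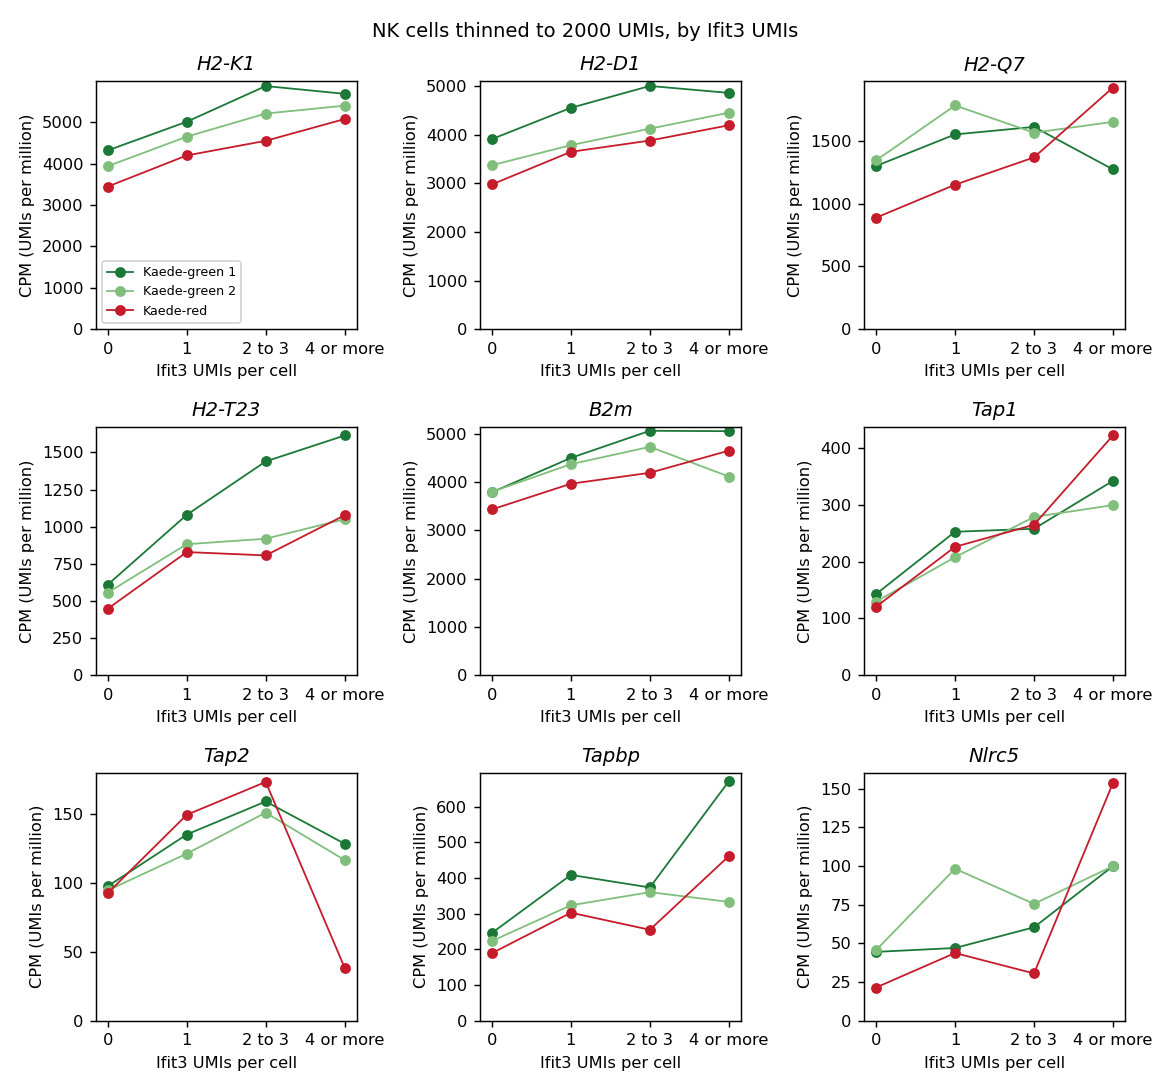
CPM of the 9 genes (linear axes from 0) against the number of Ifit3 UMIs per NK cell after thinning each cell to 2000 UMIs. Each library has its own points joined by a line. As means of the 3 libraries, Tap1 goes from 131 to 355 CPM and H2-T23 from 537 to 1247 CPM across the bins. Tap2 is spread from 38.5 to 129 CPM in the last bin.

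NK cells with Itga1 (CD49a) and no Itgam UMI were compared with NK cells with Itgam (CD11b) and no Itga1 UMI, the markers of the tissue-resident and the circulating NK phenotype. There were 315, 491 and 1527 Itga1-positive cells and 426, 306 and 76 Itgam-positive cells. Median UMIs per cell were 9493, 12075 and 24478 against 5345, 6717 and 6701, so the groups differed in depth in every library. Of the 9 genes 4 were called lower in Itga1-positive cells, where 17.3% of 9506 genes were called lower, and 0 were called higher by edgeR or DESeq2, where 18.5% were (edgeR). The 4 were also the only members with an unadjusted p under 0.05 apart from H2-T23 at 0.0351 (-0.22, adjusted p = 0.0851 in the edgeR fit).

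H2-Q7 was at 914, 1004 and 610 CPM in Itga1-positive and at 1244, 1332 and 1223 in Itgam-positive cells, without overlap, a log2 fold change of -0.54 (SE 0.108, adjusted p = 0.00208). Nlrc5 was at 27.1, 35.0 and 12.5 CPM against 42.4, 53.8 and 29.2, which overlapped across libraries, a change of -0.64 (SE 0.138, adjusted p = 0.00327). H2-K1 changed by -0.29 (SE 0.0917, adjusted p = 0.0266) and H2-D1 by -0.25 (SE 0.0843, adjusted p = 0.0355), both lower in 3 of 3 libraries without overlap, and both calls were lost without Kaede-green 1 or without Kaede-green 2. B2m (0.079, SE 0.0810), Tap1 (0.087, SE 0.0986), Tap2 (0.10, SE 0.100) and Tapbp (0.013, SE 0.0904) were not called.

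Keeping only cells of 4000 to 12000 UMIs changed this result. Median UMIs were then 6962, 7806 and 8322 in Itga1-positive against 5721, 6598 and 6260.5 in Itgam-positive cells. The groups were thus nearer in depth but not matched. Over all genes, 311 were called higher and 331 lower of 8200 in this window, against 1754 and 1642 of 9506 without it. In cells of 4000 to 12000 UMIs, 177, 237 and 228 Itga1-positive and 319, 252 and 58 Itgam-positive cells, H2-K1 was at 0.089, H2-D1 at 0.027, H2-Q7 at 0.055 and Nlrc5 at -0.11, none of them called, and B2m was called higher at 0.20 (adjusted p = 0.0018). Depth and integrin state therefore moved together in the comparison of all cells, and the 3 heavy chains called there changed sign in the window. Keeping only Ifit3-negative cells, without the depth window, left 4 members called lower, beside 1606 of 9051 genes, with Nlrc5 at -0.92.

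**Figure D4:**
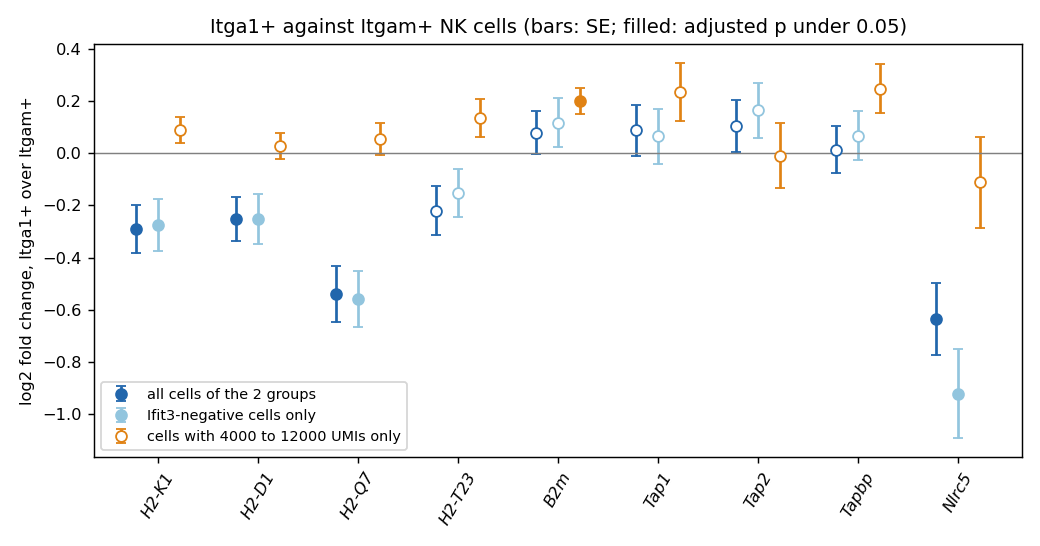
Log2 fold change (Itga1-positive over Itgam-positive NK cells) with its SE for the 9 genes, filled where the adjusted p is under 0.05. Values are from all filtered cells, from Ifit3-negative cells only and from cells of 4000 to 12000 UMIs. H2-K1, H2-D1 and H2-Q7 lie at -0.29, -0.25 and -0.54 in all cells and at 0.089, 0.027 and 0.055 in cells of 4000 to 12000 UMIs.

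The lists around the members moved in both directions in the comparison without the depth window. Of 5 immunoproteasome genes 3 were higher in Itga1-positive cells, Psmb9 at 0.51, Psmb8 at 0.45 and Psme2 at 0.35, and of 7 trimming and chaperone genes 4 were higher, with calreticulin (Calr) at 0.62, the disulfide isomerase gene Pdia3 at 0.52 and calnexin (Canx) at 0.44 leading. Of 10 regulators 6 were lower, led by the transcription factor genes Irf1 at -0.98, Nfkb1 at -0.58 and Irf2 at -0.46. Of 8 other class I and class I-like genes tested 5 were lower, led by H2-T24 at -1.15, the lipid-presenting Cd1d1 at -0.89 and H2-Q10 at -0.72, and of 7 interferon genes 2 were lower, Oasl1 at -0.51 and Irf7 at -0.37.

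Kaede colour had 1 red library, so it carries no test, and a gene was counted where Kaede-red differed from both Kaede-green libraries in 1 direction by more than these differed from each other. In NK cells 7 of 9 members were lower in Kaede-red by that rule, all but H2-D1 and Tap2, where 44.4% of all genes counted were lower. The log2 ratios to Kaede-green 1 and 2 were -1.48 and -1.54 for Nlrc5, -0.73 and -0.76 for H2-Q7, -0.49 and -0.31 for H2-K1 and -0.21 and -0.18 for B2m. The median ratio of all genes was itself -0.14, and trimmed-mean (TMM) scaling, which brought it to 0.00142, left 4 members lower, H2-Q7, H2-T23, B2m and Nlrc5, beside 2234 of 6736 genes. In cells of 4000 to 12000 UMIs 4 were lower, beside 2516 of 6720 genes. These were B2m, Tap1, Tapbp and Nlrc5, the last at -0.75 and -0.96, while H2-K1 averaged 0.0355 and H2-Q7 -0.086.

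In CD8 T cells 3 members were higher in Kaede-red, H2-K1, H2-D1 and Tap2, where 27.2% of all genes were, and 3 were lower, H2-T23, Tapbp and Nlrc5, where 25.0% were. Mean log2 ratios of these ranged from -0.41 in Nlrc5 to 0.10 in H2-D1. With TMM scaling 0 were higher and 1, Nlrc5, was lower (1806 of 6912 genes), and in the depth window 5 were higher (1702 of 6767 genes) and 0 lower. In Treg cells 7 of 9 were higher in Kaede-red, all but Tap1 and Tapbp, where 23.0% of all genes were. H2-D1 was at 4514 CPM in Kaede-red Treg cells against 3831 and 3472 in the Kaede-green ones, a mean log2 ratio of 0.31, and Nlrc5 at 47.0 against 46.6 and 46.6, a mean of 0.012. In the depth window 3 were higher, H2-K1, H2-D1 and H2-T23 (1406 of 7070 genes), and Nlrc5 was lower at -0.27.

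In myeloid cells 6 of 9 were higher in Kaede-red, all but H2-K1, H2-Q7 and Tap1, where 21.4% of all genes were. B2m was at 3382 CPM in the 37 Kaede-red cells against 1427 and 1993 in the 27 and 87 Kaede-green cells, a mean log2 ratio of 1.00, and Nlrc5 at 54.6 against 29.0 and 23.95, a mean of 1.04. H2-D1, H2-T23 and Tapbp were higher by mean ratios of 0.67, 0.57 and 0.65 and Tap2 by 0.22. In cells of 4000 to 12000 UMIs, which left 4, 8 and 16 myeloid cells, 4 members were higher, beside 915 of 6211 genes. These were H2-K1 at 0.77, H2-D1 at 0.315, H2-Q7 at 1.11 and Tap1 at 0.80, while H2-T23, B2m, Tap2, Tapbp and Nlrc5 no longer met the rule.

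The make-up of the myeloid sums moved with colour. Lyz2, a lysozyme gene of macrophages and monocytes, was at 748, 1902 and 11811 CPM and the growth factor receptor gene Csf1r at 38.7, 77.0 and 259, both highest in Kaede-red. Cst3, at 15193, 14092 and 5527 CPM, and the class II invariant chain gene Cd74, at 16088, 12776 and 8491, were lowest there. Lyz2 and Cst3 were also genes of the class rule, while Csf1r and Cd74 were not. Ifit3 was detected in 11.1%, 29.9% and 67.6% of the myeloid cells, and in 7.41%, 10.3% and 43.2% after thinning each cell to 2000 UMIs. The Ifit3 share moved with colour in the lymphocytes too, where it was lowest in Kaede-red. After the same thinning it was 11.3%, 10.8% and 6.27% in NK cells, 31.5%, 25.1% and 17.5% in CD8 T cells and 19.3%, 19.35% and 15.3% in Treg cells. The part of these values in the colour ratios of any class was not tested.

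**Figure D5:**
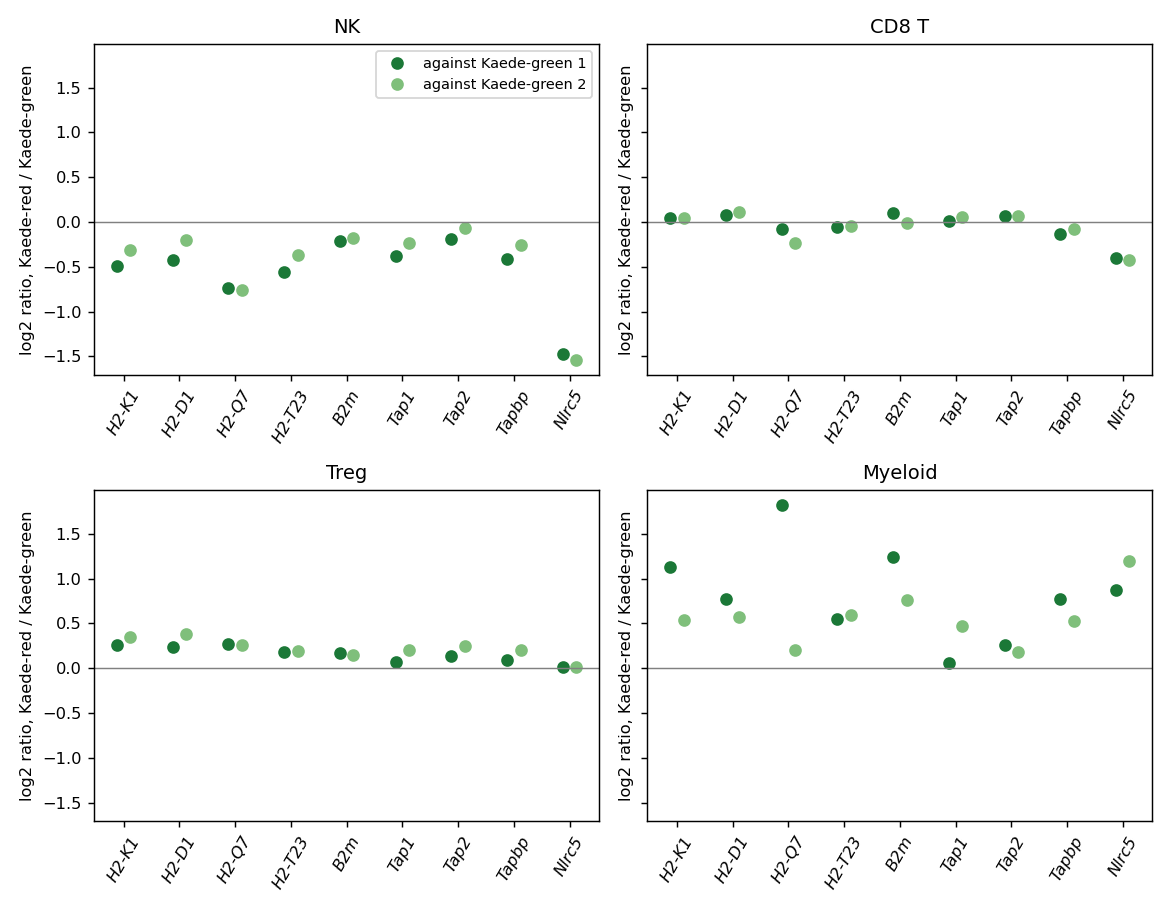
Log2 ratio of CPM in Kaede-red over each of the 2 Kaede-green libraries for the 9 genes in NK, CD8 T, Treg and myeloid cells, with a grey line at 0. Nlrc5 lies near -1.5 in NK cells and near 0 in Treg cells, and most members lie below 0 in NK cells and above 0 in Treg and myeloid cells.

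The members did not form 1 pattern over the classes. Over 18 sums (Ifit3-positive and Ifit3-negative NK and CD8 T cells, Treg and myeloid cells in 3 libraries), which share libraries and cells of 1 tissue, log2 CPM of H2-K1 correlated with H2-Q7 at Pearson r = 0.98 and with B2m at r = 0.95, Tap1 with Tap2 at r = 0.85, and H2-T23 with Tapbp at r = 0.84. H2-K1 and Tap1 were at r = -0.20 and H2-Q7 and Tap1 at r = -0.27. Outside the 9, genes closest to their mean pattern included Gbp7 (r = 0.93), H2-T22 (r = 0.92), Isg20 (r = 0.91) and Snw1 (r = 0.91), of 2559 genes with at least 50 CPM, whose median r was 0.18. Of those 2559 genes 486 were over 0.5.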

How the data were processed

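Single-cell 3′ RNA-seq was made from 3 sorted TIL libraries. The authors aligned reads to mm10 with Cell Ranger (version 6.1.2 per the submitters' processing notes) and deposited filtered matrices of raw UMI counts per gene and cell, without normalization. The 10498, 12327 and 11956 deposited cells were filtered on 1000 to 6000 genes and under 7.5% mitochondrial UMIs, which left 10000, 11078 and 10865. Scrublet (scanpy 1.11.5) called 0, 1 and 1 doublets, so its threshold had not worked, and removing the 5% of cells with the highest scores was tried instead. Pairs of libraries shared 20 to 36 barcodes. Cells that met 2 class rules (77, 214 and 176 for CD8 T and Treg, 3, 7 and 1 for NK and myeloid) were left out of the class and colour comparisons. They were kept in the Ifit3, integrin and bin comparisons of NK and CD8 T cells.

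Counts were summed per library and class and tested with edgeR 4.0.16 (R 4.3.3; TMM, filterByExpr, quasi-likelihood) with library as a block, because sums of the same library come from the same sample, and p-values were adjusted over all genes tested. The block removes the general level of each library. In fits of 2 groups, p-values therefore measure how far differences within a library vary across these 3 libraries, 2 of which differ in colour from the third. In the class fit and the fit of NK with CD8 T cells, 1 spread was shared over all classes, the small myeloid sums included in the class fit. In the trend the spread also held the scatter of the bins about the line. Spreads were moderated across genes in all edgeR fits. Counts cover sampling of molecules only, and free RNA in droplets can add UMIs. DESeq2 1.42.0, other scalings, no filter, each library left out, all cells, cells of 4000 to 12000 UMIs and single-state subsets were alternatives. The rule for named genes was all 9 members and, of each list, the 3 called genes with the largest change. Members not called are given in part as ranges, lists in the class comparisons and the trend are given in part, and 1 item is not reported here. The members and lists were chosen with earlier results of these data known. Gene positions come from GENCODE and promoters from RefSeq.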

Additional observations from a re-analysis of the deposited data

Results flagged for a closer look

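The Ifit3 difference itself differed between NK and CD8 T cells for 2 genes of the interferon list in the edgeR interaction test, Usp18 (NK minus CD8 T -0.53 on the log2 scale) and Rsad2 (-1.205), both higher in Ifit3-positive cells of either class. No member was among them. Ifit3-positive CD8 T cells also held more Ifit3 UMIs at equal depth than Ifit3-positive NK cells in every library.

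For 6 members Kaede-red lay on one side of both Kaede-green libraries in one class and on the other side in another, each time by more than the gap between those 2 libraries. Taken singly, 44.4% of all genes were lower in Kaede-red NK cells. In CD8 T, Treg and myeloid cells 27.2%, 23.0% and 21.4% were higher. The share of all genes on opposite sides in different classes was not counted, so the 6 have no background. The difference between classes was not tested, because there was 1 Kaede-red library. H2-K1 had a mean log2 ratio of -0.40 in NK, 0.31 in Treg and 0.042 in CD8 T cells. H2-Q7 was at -0.746 in NK and 0.26 in Treg cells, and H2-T23 at -0.46 in NK, 0.19 in Treg and 0.57 in myeloid cells. B2m was at -0.195 in NK, 0.16 in Treg and 1.00 in myeloid cells, Tapbp at -0.335 in NK and 0.65 in myeloid cells, and Nlrc5 at -1.51 in NK, 0.0122 in Treg and 1.04 in myeloid cells. The median NK cell had 17231.5 UMIs in Kaede-red against 6127 and 8177. Treg cells were shallower in Kaede-red, at 7139 against 9577.5 and 10098, as were myeloid cells, at 13197 against 14630 and 16351. In cells of 4000 to 12000 UMIs H2-K1 in NK cells moved to 0.0355, H2-Q7 to -0.086 and H2-T23 to -0.10. In that window Nlrc5 stayed at -0.855 in NK cells and moved to -0.27 in Treg cells. With TMM scaling H2-K1 in NK and CD8 T cells, Tapbp in NK cells and Nlrc5 in Treg cells no longer met the rule. The Nlrc5 ratio in Treg cells rested on 47.0 CPM against 46.6 and 46.6. In myeloid cells thinned to equal depth, Nlrc5 was detected least often in Kaede-red, at 2.70% against 11.1% and 6.90%. Those shares came from 1 cell against 3 and 6. Without thinning it was detected most often in Kaede-red, at 51.35% against 29.6% and 35.6%.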

How the results depend on the processing

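Of 1413 member values under alternatives, 1223 kept their status, called or not called, 99 lost and 55 gained a call, 27 moved and 9 reversed. The 1223 include values called in neither setting, such as all those of the NK minus CD8 T difference. They are therefore not a count of calls that held. Among the 1223 were 25 fitted values whose sign differed but which were called in neither setting. The 27 were colour values that changed between higher, lower and neither. Of 314 counts 258 stayed within 1.5 times. The cause was not tested. Without the library (replicate) block, 0 members were called in the Ifit3 comparison in NK cells (4 of 11430 genes higher) and 0 in CD8 T cells (174 of 12418). In such fits 1 was lower in Itga1-positive cells (1070 of 9506 genes) and 4 were higher in the trend (263 of 3377). Of the members 0 were then lower in NK than CD8 T cells (832 of 12603). All genes called in the NK Ifit3 comparison went from 883 to 4 without the block and to 1442 without the filter. Member counts moved as follows. The NK Ifit3 count was 5 with all cells, 2 in Itgam-positive and 3 in Itga1-positive cells. Itga1 against Itgam gave 1 higher and 0 lower in cells of 4000 to 12000 UMIs. NK against CD8 T gave 0 lower without the filter (1355 of 21663 genes) and 2 with DESeq2 (1344 of 12603). It also gave 2 with cells of 2 classes kept (1231 of 12784), with only these classes (2050 of 13027) or only lymphocytes (1578 of 13174). In the depth window it gave 3 (1646 of 10917), also with lymphocytes alone (2135 of 11838). NK against Treg gave 4 lower in the depth window (2359 of 10917 genes), and 8 there with lymphocytes alone (2799 of 11838). Treg against CD8 T gave 6 higher with only these classes (1583 of 12240 genes) and 8 for lymphocytes in the depth window (2193 of 11838). Myeloid against NK gave 1 higher without the filter (2083 of 21663 genes) or with only these classes (1147 of 11254) and 0 in the depth window (789 of 10917). Against CD8 T it gave 1 and 0 in the last 2 settings (1472 of 11733 and 841 of 10917). Against Treg it gave 2 lower with only these classes (1232 of 9841). The trend gave 4 without the filter (328 of 16360 genes). Leaving out one library each gave 0 to 1 higher and 2 to 4 lower in Itga1 against Itgam, 0 to 3 lower in NK against CD8 T, 0 to 4 higher and 0 to 1 lower in Treg against CD8 T, 1 to 2 higher and 2 to 5 lower in myeloid against NK, 1 to 2 higher and 1 to 5 lower against CD8 T and 2 to 7 lower against Treg. In each of those comparisons fewer genes of all were called without either Kaede-green library, and more without Kaede-red. For colour, NK gave 4 lower with TMM or in the depth window. CD8 T gave 0 higher and 1 lower with TMM and 5 and 0 in the depth window, and Treg 3 higher and 1 lower in the depth window and 1 lower with all cells. Reversed values were H2-K1 0.0894, H2-D1 0.0268 and H2-Q7 0.0549 (Itga1 against Itgam, depth window), Nlrc5 -0.64 (myeloid against NK without Kaede-red, the other libraries left out giving up to 0.84), and, by colour, H2-K1 0.0355 in NK and H2-T23 0.10 in CD8 T cells (depth window) and Nlrc5 in Treg cells at -0.0242 (TMM), -0.0558 (all cells) and -0.27 (depth window). Without TMM the median of all genes moved from 0.03 to -0.16 in NK against Treg, from -0.02 to 0.11 in Treg against CD8 T and from -0.21 to -0.48 in myeloid against Treg, and the higher and lower calls from 1701 and 1891 to 1170 and 2581, from 1032 and 860 to 1325 and 633 and from 2016 and 2364 to 1635 and 3649.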
